A study of Homo sapiens with 2 samples.

Results

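The small MAF genes and their partners in the NRF2 pathway were examined as a set of 10 genes, out of 20037 protein-coding genes: MAFK, MAFF, MAFG, BACH1, NFE2L2, KEAP1, HMOX1, NQO1, SLC7A11 and GCLM. Their peaks were all RUNX2 and MTA1 peaks that lay inside the gene or within 50 kb of it. MAFK was chosen by the score of its strongest MTA1 peak, and the number, position, score rank and overlap of the peaks defined the set. These values are therefore given as descriptions, with no test. The study mapped RUNX2, a Runt-domain transcription factor, and MTA1, which belongs to the histone-deacetylating NuRD complex, in MDA-MB-231, a triple-negative breast cancer line, by CUT&Tag. This method brings a transposase to the antibody-marked protein and sequences the DNA cut beside it. There was 1 library per antibody, so the lists cannot be compared beyond these 2 libraries, and no control library was analysed here. Both libraries came from the same non-treated line grown in medium with serum, and the target of the antibody is the difference the labels give between them. The RUNX2 list held 61700 peaks on the nuclear chromosomes, of which 83 (0.135%) lay at these genes. The MTA1 list held 42683, of which 68 (0.159%) lay at these genes. Each peak carried a score of the authors whose scale was not stated. Scores ran from 3.0 to 108 in the RUNX2 list (median 6.70) and from 3.01 to 98.7 in the MTA1 list (median 7.58). Between the lists only ranks were compared, as the percentage of the peaks of a list that had a lower score. Sequencing depth is unknown for both libraries, and signal that is weak cannot be told apart from none where no peak was called.

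The small MAF proteins MAFF, MAFG and MAFK are basic leucine zipper proteins without a transactivation domain. They bind the antioxidant response element (ARE) as partners of NRF2, the activator encoded by NFE2L2, or of BACH1, which represses the same genes. KEAP1 holds NRF2 in the cytoplasm and directs its ubiquitination until oxidants or electrophiles modify KEAP1. Genes under this control include HMOX1 (heme oxygenase, which degrades heme), NQO1 (a quinone reductase), SLC7A11 (the cystine transporter subunit of system xc-) and GCLM (the modifier subunit of the enzyme that makes gamma-glutamylcysteine for glutathione).

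RUNX2 and MTA1 peaks met at the start of most of these genes. The RefSeq promoter table held 12 promoters of 7 of the genes (GRCh38.p14), and in 6 of the 12 the window from 250 bases before to 50 bases after the start overlapped a peak of each list (33.6% of 22199 promoters of protein-coding genes did). Within 1 kb of an annotated start, 7 of 7 genes had peaks of both lists, against 46.8% of 15843 protein-coding genes of the table. MAFK, HMOX1 and SLC7A11 had no promoter in it and are not among the 7. By the outer limit of the gene, MAFK had no peak of either list within 1 kb of its start, and HMOX1 and SLC7A11 had peaks of both. Among the 7, the RUNX2 peak at the MAFG promoter was weak (3.95, higher than 12.6% of the list). The 250 bases before the start of 5 of the promoters that carried peaks of both lists are shown, 5′ to 3′ on the strand of the gene, because they include every ARE core or AP-1 match found at these genes and the promoter with the highest-ranked MTA1 peak. Capitals mark matches to the ARE core TGACNNNGC or to the AP-1 site TGACTCA, on either strand.
GCLM chr1:93909431-93909680 (-): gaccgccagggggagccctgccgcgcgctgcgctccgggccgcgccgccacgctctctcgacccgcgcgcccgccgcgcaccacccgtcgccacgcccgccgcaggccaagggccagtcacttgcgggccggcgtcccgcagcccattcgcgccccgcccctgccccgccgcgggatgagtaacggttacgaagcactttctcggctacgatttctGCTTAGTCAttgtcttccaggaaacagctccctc
KEAP1 chr19:10502772-10503021 (-): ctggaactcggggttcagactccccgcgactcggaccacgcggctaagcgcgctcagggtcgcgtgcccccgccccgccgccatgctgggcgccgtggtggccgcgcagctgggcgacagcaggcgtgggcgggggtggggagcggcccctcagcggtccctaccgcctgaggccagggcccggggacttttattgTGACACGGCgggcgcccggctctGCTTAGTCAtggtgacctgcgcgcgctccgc
MAFF chr22:38201744-38201993 (+): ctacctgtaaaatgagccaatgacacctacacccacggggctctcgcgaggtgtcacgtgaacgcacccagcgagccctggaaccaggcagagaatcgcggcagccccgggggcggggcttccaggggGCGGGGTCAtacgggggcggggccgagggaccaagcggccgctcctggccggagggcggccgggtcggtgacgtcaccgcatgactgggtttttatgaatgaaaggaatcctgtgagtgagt
BACH1 chr21:29298672-29298921 (+): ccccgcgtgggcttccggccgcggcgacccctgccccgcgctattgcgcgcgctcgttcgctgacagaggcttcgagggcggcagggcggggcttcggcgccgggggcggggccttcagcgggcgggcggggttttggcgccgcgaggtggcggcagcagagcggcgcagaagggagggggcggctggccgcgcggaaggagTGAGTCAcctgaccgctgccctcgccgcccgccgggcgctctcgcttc
NQO1 chr16:69726561-69726810 (-): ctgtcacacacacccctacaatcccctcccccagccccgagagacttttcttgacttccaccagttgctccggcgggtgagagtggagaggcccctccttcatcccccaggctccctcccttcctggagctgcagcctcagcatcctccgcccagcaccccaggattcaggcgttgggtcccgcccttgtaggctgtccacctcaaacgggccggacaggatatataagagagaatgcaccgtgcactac

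GCLM and KEAP1 each held the same 9 letters, which read TGACTAAGC on the opposite strand, and these occurred in 23 of 22199 promoters (0.104%). The letters were picked because these 2 promoters hold them, and the 23 include both. The share is therefore a description and no background for the 2. The match lay 34 bases before the start of GCLM and 31 bases before that of KEAP1, in both cases inside a RUNX2 and an MTA1 peak. KEAP1 held another match, TGACACGGC, 54 bases before the start. MAFF held one 122 bases before the start that reads TGACCCCGC on the opposite strand, again inside peaks of both lists. ARE core matches were thus present in 3 of the 12 promoters, against 13.8% of all promoters. All 3 were among the 6 promoters of the set with peaks of both lists. Over all protein-coding genes, 16.5% of the 7449 promoters with peaks of both lists held a match. BACH1 held the AP-1 letters 48 bases before the start, at chr21:29298874-29298880, inside the RUNX2 peak and outside the MTA1 peak. The AP-1 letters, which overlap an ARE core where they are followed by GC, were found in 1 of 12 promoters and in 4.01% of all. NQO1 held neither in this window. The RUNX letters TGTGGT were in 0 of the 12 promoters and in 11.3% of all promoters. A match is a description of the letters, and an absent match says only that these letters are not in the window. The 12 promoters held a median of 37.5 CpG dinucleotides and 72.5% G and C, where all promoters had medians of 21 and 62.3%. Promoters with peaks of both lists also had more CpG than those with neither, with medians of 27 and 10. NQO1 was the CpG-poor exception among the 6, with 14 CpG dinucleotides. The part of base composition in the placement of the peaks was not tested.

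**Figure D1:**
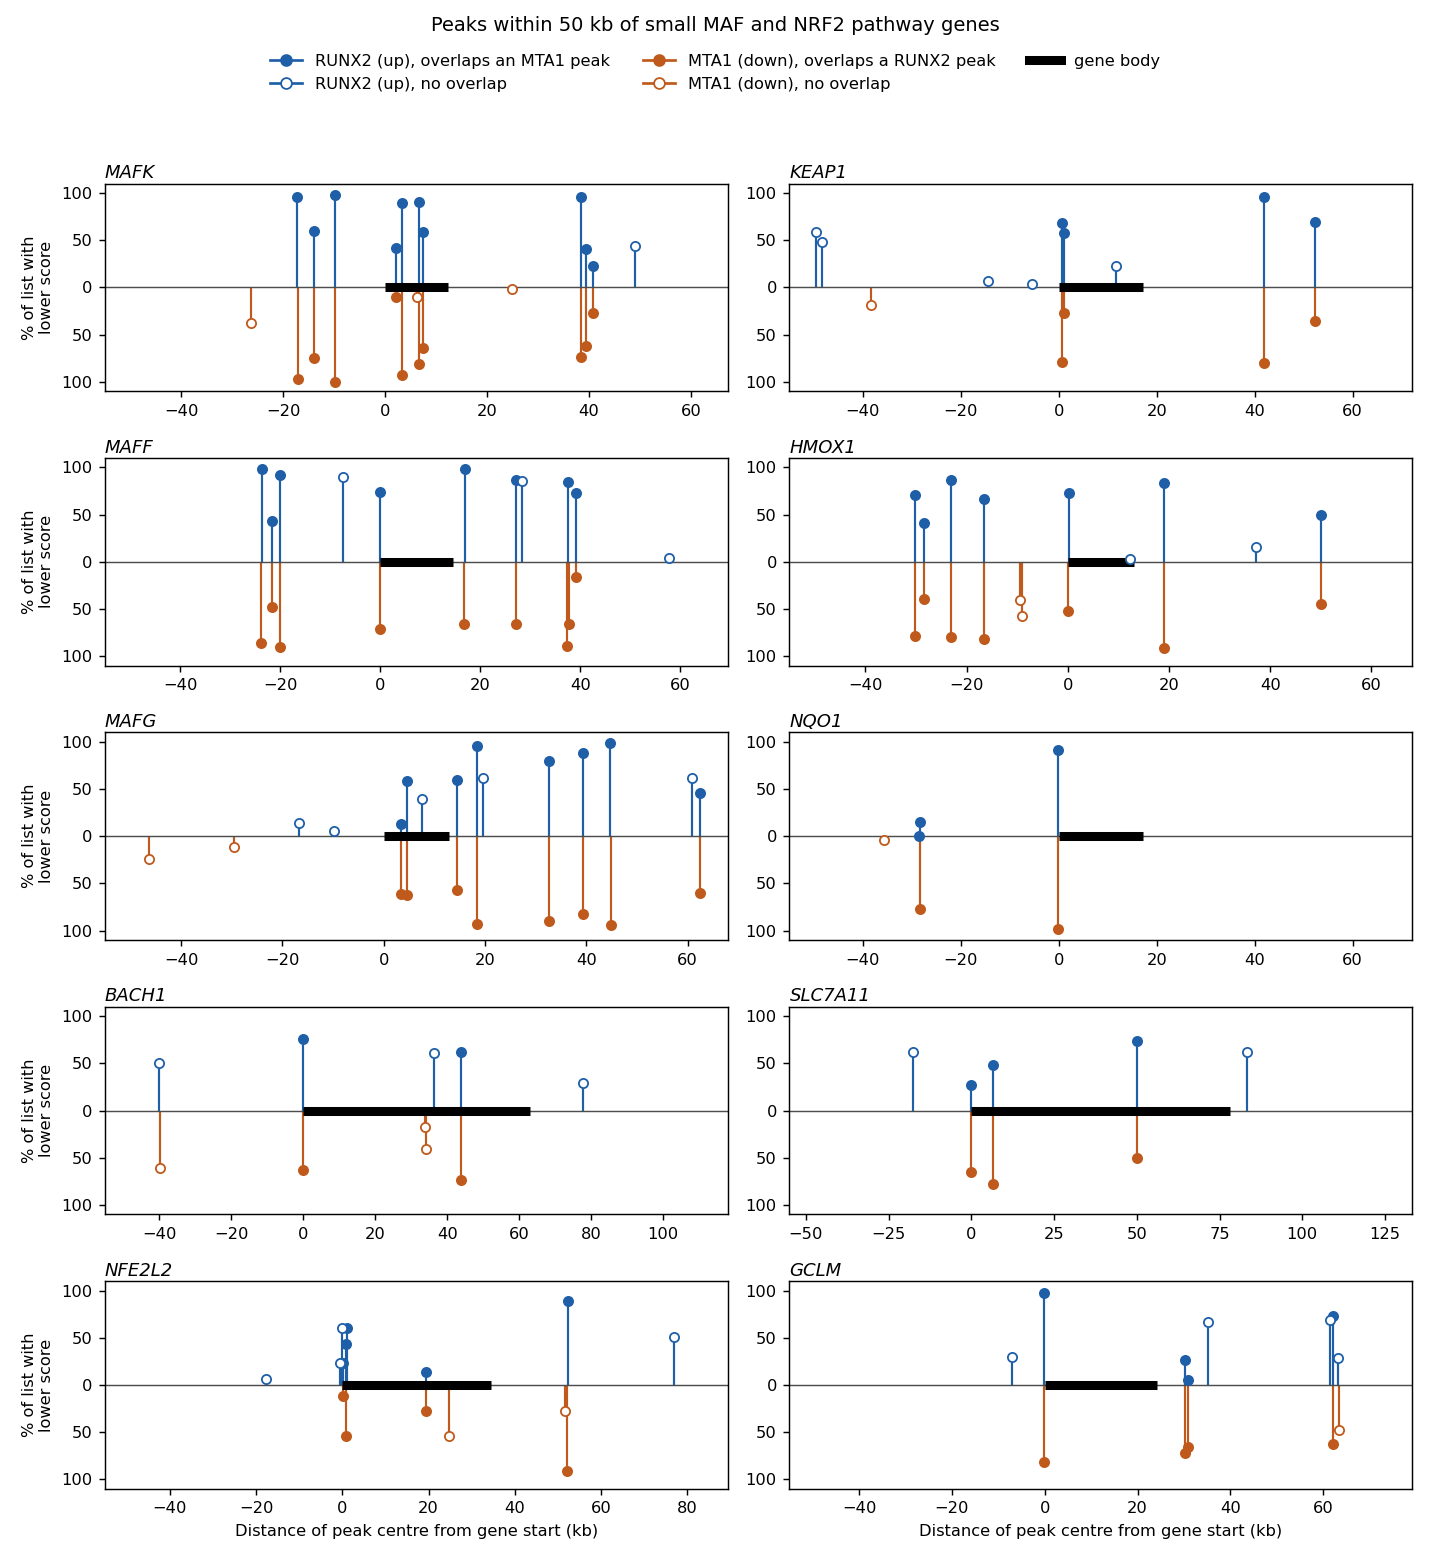
Each panel shows a gene with the distance of the peak centre from the gene start in kb (x axis, direction of transcription to the right) and the percentage of the peaks of the same list with a lower score (y axis, RUNX2 upwards and MTA1 downwards). Filled points overlap a peak of the other list by at least 1 bp and open points do not. Of the peaks at MAFK, the strongest of each list face each other upstream of the gene, and NQO1 and GCLM carry their own strongest peaks at the start.

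MAFK, 12.3 kb long on chromosome 7, lay within 50 kb of the highest-scoring peak of the MTA1 list. The peak at chr7:1520623-1521053 had a score of 98.7 (rank 1 of 42683). The RUNX2 peak at chr7:1520602-1521050 covered nearly the same bases, with a score of 47.6 that ranked 1074 and was higher than 98.3% of the RUNX2 list. Both lay 9.65 kb upstream of the start of MAFK, in no annotated gene, and MAFK was the nearest protein-coding gene. The nearest annotated gene of any type was LOC124901572, 586 bp from the MTA1 peak and 589 bp from the RUNX2 peak. In all 11 RUNX2 and 13 MTA1 peaks lay at MAFK, and 10 of each overlapped. Peaks of each list were fewer at 85.6% (RUNX2) and 96.9% (MTA1) of protein-coding genes. A second upstream pair, 17.1 kb before the start and nearer to INTS1, had scores of 35.6 (RUNX2, higher than 96.0%) and 36.5 (MTA1, higher than 97.4%). No peak lay within 1 kb of the start. The nearest ones were weak, at 2.15 kb into the gene for RUNX2 (5.57) and at 1.96 kb for MTA1 (4.44). Further inside the gene, 3.21 kb from the start, the pair at chr7:1533911-1534100 and chr7:1533911-1534140 had scores of 22.5 (RUNX2) and 26 (MTA1). The next pair, at chr7:1537292-1537515 for RUNX2, had 23.9 (RUNX2) and 15.8 (MTA1). Downstream, 38.3 kb from the start and inside PSMG3, the RUNX2 peak ranked above 96.0% of its list (35.8) and the MTA1 peak above 74.1% (12.6). At MAFK the MTA1 peak was ranked higher than its RUNX2 mate in 7 of 10 pairs, against 43.3% of pairs over the whole lists. The 7 include the pair of the MTA1 peak on which MAFK was chosen, so the count is a description only. The median difference at MAFK, MTA1 minus RUNX2, was 2.75 percentage points.

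MAFF and MAFG had counts of RUNX2 peaks like those of MAFK, but their strongest peaks lay in or beside neighbouring genes. MAFF, on chromosome 22, had 11 RUNX2 and 9 MTA1 peaks, and all 9 of the latter met a RUNX2 peak. At its start the RUNX2 peak chr22:38201825-38202097 had a score of 11.8 (higher than 74.1%) and the MTA1 peak chr22:38201794-38202143 had 11.9 (higher than 71.8%), and these contain the ARE core shown above. The strongest RUNX2 peak, 50 at chr22:38178078-38178482, was inside PLA2G6, 23.5 kb upstream, and its MTA1 mate had 18.7. The strongest MTA1 peak, 22.8 at chr22:38181781-38182062, was also in PLA2G6 and faced a RUNX2 peak of 25.5. Inside TMEM184B, 16.6 kb downstream of the start of MAFF, RUNX2 scored 47.0 (higher than 98.2%) and MTA1 10.4 (higher than 66.2%). The RUNX2 peak was ranked higher in 6 of the 8 pairs at MAFF, and in 15877 of 27997 pairs over the whole lists. The highest-ranked RUNX2 peak of the whole set with no MTA1 peak on it was also here, 7.18 kb upstream of MAFF at chr22:38194473-38194816, with a score of 22.8 (higher than 89.6%). Another, at chr22:38230183-38230296 in TMEM184B, had 18.5 (higher than 85.6%).

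MAFG, on chromosome 17 in a gene-dense stretch, had 13 RUNX2 and 10 MTA1 peaks, 8 of each overlapping. Its strongest pair, chr17:81886225-81886678 for RUNX2 (56.0, higher than 99.1%) and chr17:81886202-81886566 for MTA1 (28.3, higher than 94.5%), lay 31.6 kb beyond the far end of the gene and nearest to ALYREF. A pair in SIRT7, 18.2 kb from the start, had 33.6 (RUNX2) and 26.7 (MTA1). Peaks inside MAFG itself were lower. At the annotated promoter, which lies inside the outer limit of the gene, RUNX2 had 3.95 at chr17:81927727-81927855 (higher than 12.6%) and MTA1 had 9.46 at chr17:81927738-81927931 (higher than 61.8%). Of the 13 RUNX2 peaks only 3 had MAFG as nearest protein-coding gene, and of the 10 MTA1 peaks 2 did.

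At the regulators BACH1, NFE2L2 and KEAP1, 11 of 23 RUNX2 peaks (47.8%) had an MTA1 peak on them, close to the 45.4% of the whole list. BACH1, on chromosome 21, had 5 peaks of each list and 2 overlaps. One pair was at the start, with 12.4 for RUNX2 at chr21:29298835-29299049 and 9.74 for MTA1 at chr21:29298886-29299049, higher than 75.6% and 63.4% of their lists. The other was 43.7 kb into the gene, where MTA1 had its highest score at BACH1, 12.4, and RUNX2 had 8.43. A RUNX2 and an MTA1 peak 39.9 and 39.7 kb upstream missed each other by 113 bp and were not counted as overlapping.

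At NFE2L2, on chromosome 2, RUNX2 had 9 peaks, 5 of them under an MTA1 peak, and MTA1 had 6, of which 4 met RUNX2. Around its start were 5 small RUNX2 peaks, with scores from 4.82 to 8.1, and 2 MTA1 peaks with scores of 8.03 and 4.57. The RUNX2 peaks at chr2:177264732-177264830 and chr2:177265128-177265226 overlapped no MTA1 peak. The strongest pair was at HNRNPA3, 17.5 kb beyond the far end of NFE2L2, with 21.5 for RUNX2 (higher than 88.6%) and 23.4 for MTA1 (higher than 91.2%). KEAP1, on chromosome 19, had 9 RUNX2 and 5 MTA1 peaks, with 4 of each overlapping. Its start pair, 0.443 kb inside the outer limit of the gene, had 9.92 for RUNX2 at chr19:10502681-10502913 and 14.8 for MTA1 at chr19:10502692-10502915. The strongest pair near KEAP1 was inside PDE4A, with 34.3 (RUNX2) and 15.2 (MTA1).

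Among the target genes, NQO1 and GCLM had their strongest peaks of both lists on the start, and in opposite rank order. NQO1, on chromosome 16, had just 3 peaks of each list, as few as any gene of the set. At its start, shared with the divergent transcript NQO1-DT, MTA1 had 40.5 at chr16:69726396-69727019 (higher than 98.2%) and RUNX2 had 24.7 at chr16:69726434-69726997 (higher than 91.0%). GCLM, on chromosome 1, had 8 RUNX2 and 5 MTA1 peaks. Its start peak scored 44.4 in the RUNX2 list (chr1:93909398-93909781, higher than 97.8%) and 16 in the MTA1 list (chr1:93909408-93909776, higher than 81.8%). The other GCLM peaks lay mainly downstream in DNTTIP2 and BCAR3, and the highest of them scored 11.2 (RUNX2) and 11.9 (MTA1).

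HMOX1, on chromosome 22, had 9 peaks of each list, 7 of each overlapping. The start was moderately ranked, with 11.3 for RUNX2 at chr22:35381099-35381444 and 7.8 for MTA1 at chr22:35381049-35381166. Upstream, in the stretch between TOM1 and HMOX1, 4 overlapping pairs followed one another at 30, 28.3, 22.9 and 16.5 kb before the start. RUNX2 had scores of 10.7, 5.59, 19.2 and 9.37 there, and MTA1 had 14.5, 6.41, 14.8 and 16.4. TOM1 was the nearest protein-coding gene of each, but for the last pair this was close to a tie. Its RUNX2 peak lay 16.4 kb from TOM1 and 16.5 kb from HMOX1. Closer to HMOX1, 9.31 and 8.82 kb before the start, MTA1 had 2 peaks with scores of 6.49 and 8.62 and RUNX2 had none. The strongest MTA1 peak near HMOX1 was at MCM5 (23.2). SLC7A11, on chromosome 4, had 5 RUNX2 and 3 MTA1 peaks, and all 3 of the latter met a RUNX2 peak. At the start RUNX2 had 5.11 (higher than 27.2%) and MTA1 had 10.2 (higher than 65.3%). A pair 6.4 kb into the gene had 6.56 for RUNX2 and 14.3 for MTA1, and one 49.9 kb into it had 11.5 and 7.66.

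**Figure D2:**
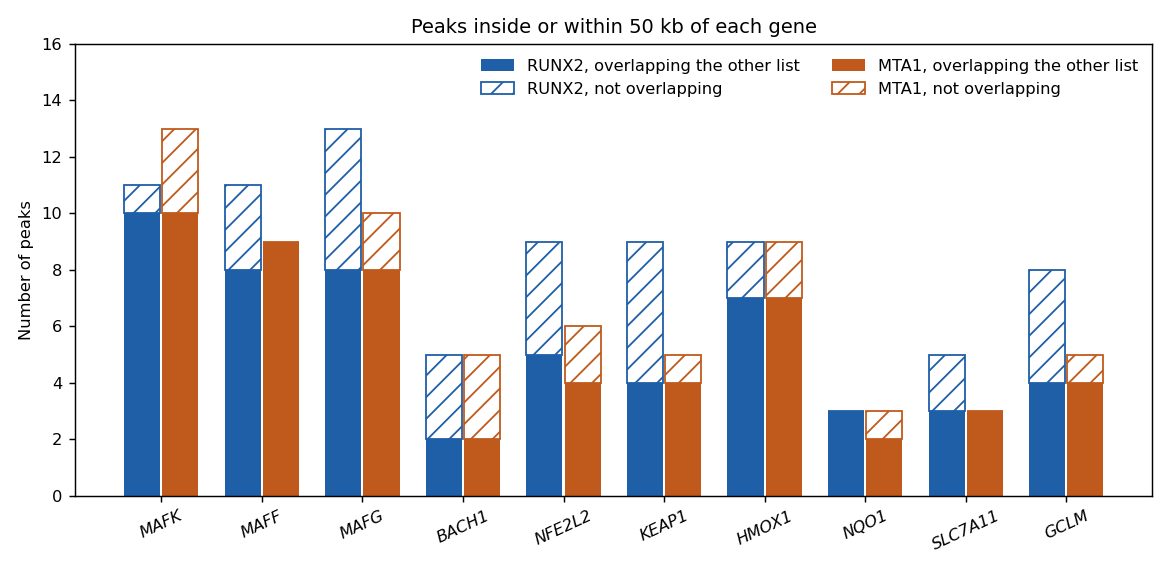
Bars give the number of peaks (y axis) inside or within 50 kb of each gene, RUNX2 in blue and MTA1 in orange, with the filled part overlapping the other list. Counts run from 3 (NQO1) to 13 (MAFG) for RUNX2 and from 3 (NQO1, SLC7A11) to 13 (MAFK) for MTA1.

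Of the 83 RUNX2 peaks 54 overlapped an MTA1 peak, or 65.1% (exact Clopper-Pearson 95% interval 53.8 to 75.2%). For MTA1 the share meeting RUNX2 was 53 of 68, or 77.9% (66.2 to 87.1%). These intervals cover counting error over peaks only. Over the whole lists the shares were 45.4% of RUNX2 and 65.5% of MTA1 peaks, and over peaks within 50 kb of any protein-coding gene 47.6% and 66.7%. Without MAFK the shares at the remaining genes were 61.1% and 78.2%. The small MAF genes had 26 of 35 RUNX2 peaks overlapping (74.3%, 56.7 to 87.5%), the regulators 11 of 23 (47.8%, 26.8 to 69.4%) and the targets 17 of 25 (68.0%, 46.5 to 85.1%). Neighbouring peaks share a locus and overlap was among the values that defined the set. The intervals therefore do not compare the groups, and no order between them is drawn.

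Pooled over the genes of the set, peaks that overlapped the other list ranked higher than those that did not. The median RUNX2 peak with an MTA1 peak on it was higher than 70.3% of its list, and without one higher than 43.7%. For MTA1 these medians were 71.8% and 27.4%. The whole lists had the same order, with 72.4% and 29.3% for RUNX2 and 65.2% and 24.4% for MTA1. At single genes this order was absent for RUNX2 at SLC7A11 and MAFF and for MTA1 at NFE2L2. Of the RUNX2 peaks at these genes 18 (21.7%, against 31.7% of the whole list) had the narrowest width of that list, 99 bp, and 12 of these 18 had no MTA1 peak on them. The narrowest MTA1 width, 116 bp, was that of 7 peaks (10.3%, against 26% of the whole list), 4 of them without RUNX2.

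In the 54 overlapping pairs the MTA1 peak was ranked higher in 28 and the RUNX2 peak in 26 (51.9% with MTA1 higher, against 43.3% of 27997 pairs over the whole lists). The median difference, MTA1 minus RUNX2, was 1.55 percentage points, with a range from -55.9 to 76.5. The lowest value was that of the MAFF pair at chr22:38241039-38241177, where RUNX2 ranked above 72.5% and MTA1 above 16.6% of their lists. The highest was at NQO1, 28.5 kb upstream in NOB1 and its flank, where a RUNX2 peak of 3.07 overlapped an MTA1 peak of 13.9.

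**Figure D3:**
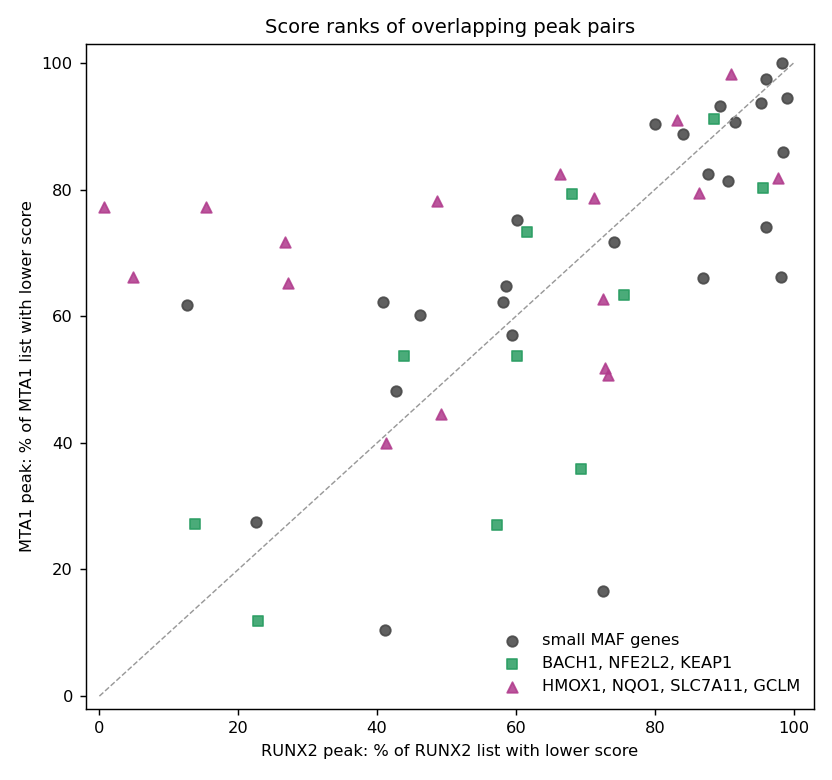
Each of the 54 points is a RUNX2 peak and the MTA1 peak it overlaps, with the percentage of the RUNX2 list (x axis) and of the MTA1 list (y axis) that had a lower score, and the dashed line marks equal rank. Many pairs of the small MAF genes lie in the upper right corner. Several target gene pairs and a MAFG pair sit at the upper left, with low RUNX2 and higher MTA1 ranks. The NQO1 points at the upper left share the same MTA1 peak.

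By position, RUNX2 had 24 peaks inside the genes, 26 upstream and 33 downstream, and MTA1 had 24, 19 and 25. Within 1 kb of the gene start lay 12 RUNX2 and 10 MTA1 peaks. Another protein-coding gene was overlapped by 32 RUNX2 and 29 MTA1 peaks, and the gene of the set was the nearest protein-coding gene for 35 and 28. Just inside the window edge were a RUNX2 peak 49.5 kb from MAFG (6.21) and an MTA1 peak 49.4 kb from it (9.16). Just outside were a RUNX2 peak 50.3 kb (4.48) and an MTA1 peak 50.7 kb (5.15) from HMOX1.

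**Figure D4:**
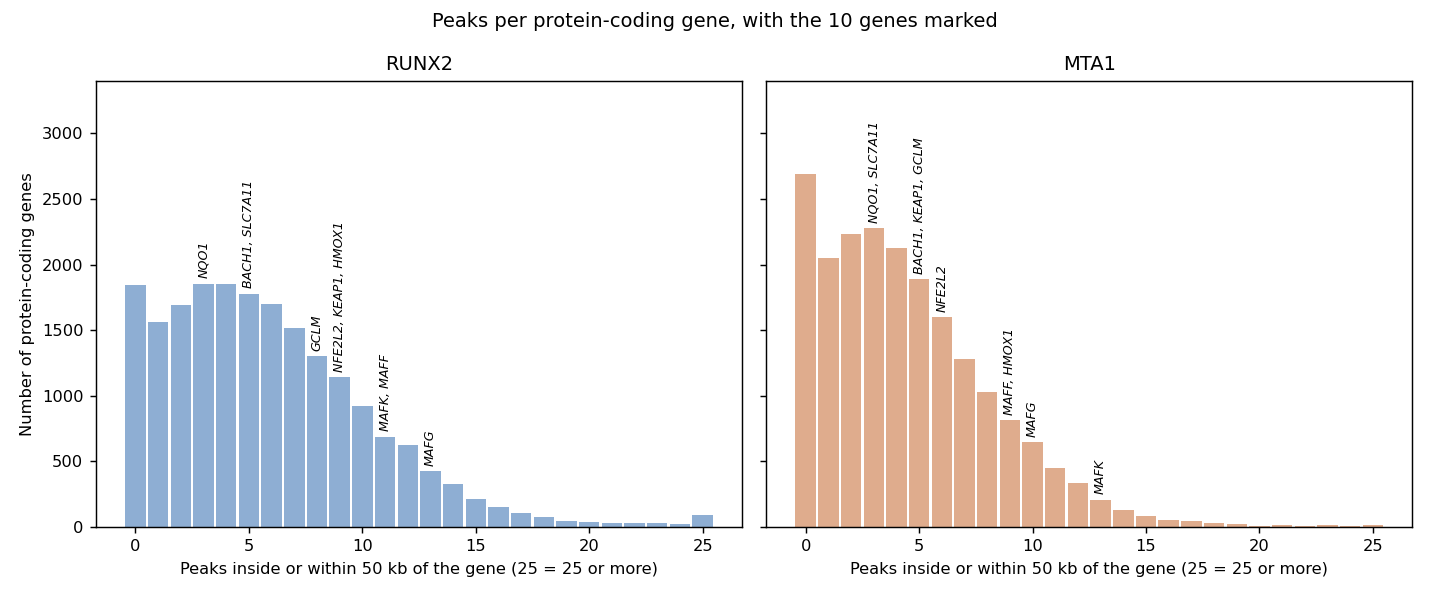
Histograms give the number of protein-coding genes (y axis) by the number of RUNX2 (left) or MTA1 (right) peaks inside or within 50 kb of the gene (x axis, with 25 or more in the last bar), and the 10 genes are written above the bar they fall in. The medians over all genes are 5 RUNX2 and 4 MTA1 peaks, and the small MAF genes stand to the right in both panels. HMOX1 is in the same MTA1 bar as MAFF (9 peaks), and NFE2L2, KEAP1 and HMOX1, with 9 RUNX2 peaks each, are also above that median.

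Set beside all protein-coding genes, the 10 genes had medians of 9 RUNX2 and 5.5 MTA1 peaks where all genes had 5 and 4. Per 100 kb of gene and window the medians were 7.19 and 4.36, against 3.55 and 2.58. A RUNX2 peak within 3 kb of a gene end was present at 10 of 10 genes (59.9% of all protein-coding genes), an MTA1 peak at 10 of 10 (59.1%) and peaks of both lists at 10 of 10 (51.9%). For MAFG the end in question was the far one, next to SIRT7, and the other 9 genes had peaks of both lists at the start side. With a window of 1 kb the count for both lists was 8, and the shares above do not apply to it because they are for 3 kb. The share of all genes at 1 kb of an end was not computed. A RUNX2 peak among the highest 5% of scores lay within 50 kb of 5 of the 10 genes (23.5% of all genes), and one among the highest 1% at MAFG alone (5.76%). An MTA1 peak among the highest 5% lay at 2 genes, MAFK and NQO1 (24.8%), and one among the highest 1% at MAFK alone (6.61%). As MAFK was selected on that peak, its count adds nothing to the background share.

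Another 38 genes of the pathway, among them thioredoxin, glutathione, NADPH, iron and drug-conjugating enzymes and further CNC-type factors, were described in the same way. A RUNX2 peak lay within 3 kb of a gene end at 28 of the 38, an MTA1 peak at 30 and peaks of both lists at 27, or 73.7%, 78.9% and 71.1% against 59.9%, 59.1% and 51.9% of all protein-coding genes. RUNX2 peaks among the highest 5% of scores lay within 50 kb of 11 of the 38 (28.9%, against 23.5% of all genes), and MTA1 peaks among the highest 5% of 11 (28.9%, against 24.8%). A peak among the highest 1% lay at 1 of the 38 genes for each list (2.63%), against 5.76% (RUNX2) and 6.61% (MTA1) of all genes. NQO2, a quinone reductase related to NQO1, had a RUNX2 peak of 65.4 at chr6:3053552-3054098, ranked 258, which lay 33.8 kb away and nearest to RIPK1. FTL, the ferritin light chain, had an MTA1 peak of 50.4 at chr19:48978833-48979243, ranked 288, which lay 12 kb away and nearest to GYS1. Each of the 38 genes had at least 1 peak of either list within 50 kb, and AKR1C1, an aldo-keto reductase, had 0 RUNX2 peaks and 1 MTA1 peak, while UGT1A6, a glucuronosyltransferase, had 1 RUNX2 peak and 0 MTA1 peaks.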

How the data were processed

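CUT&Tag libraries against RUNX2 and MTA1, 1 of each, came from the MDA-MB-231 line. The authors deposited 1 peak list per library, called per sample, with position and a score of unstated scale, and this score was ranked only within its own list. The submitters' processing notes name CASAVA 1.4, Bowtie 0.12.8, MACS, MACS2 and build hg19. The labels and the methods name different antibody suppliers, and the labels describe end repair and adaptor ligation, unlike CUT&Tag, so product and preparation are uncertain.

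The listed positions fitted GRCh38: ends of protein-coding genes had 17.9% of RUNX2 peaks and 25.1% of MTA1 peaks within 1 kb, against 4.65% and 5.06% after a move of 100 kb. RefSeq GRCh38.p14 tables therefore gave names, distances and promoters. Starts are the outer limit of the gene on its start side. The strand of MAFK, HMOX1 and SLC7A11 was taken from general knowledge. Positions are 1-based. Mitochondrial peaks (17 of RUNX2, 15 of MTA1) were not used.

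Overlap meant at least 1 bp. Shares carry exact 95% intervals, which cover counting error only. No p-value was computed, as peaks and genes are not replicates. The members and lists were chosen with earlier results of these data known. The counts within 1 kb of an annotated start, in promoter windows and of the GCLM letters were added after seeing the data. Named genes are the 10 members, the nearest gene of each strongest peak, and pathway genes with a peak among the highest 1% of scores or with none of either list. Further neighbours, AKR1C1 and UGT1A6 were named after their values were seen. Alternatives were other windows, score thresholds, overlap definitions, nearest-gene assignment and merging. The script for overlaps was tested on simulated data. Scripts ran in Python 3.11.15 with scipy 1.17.1, pandas 2.3.3, numpy 2.4.6 and matplotlib 3.10.9.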

Additional observations from a re-analysis of the deposited data

How the results depend on the processing

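Counts of peaks at the 10 genes followed the window and the threshold, as these set how much is counted. RUNX2 peaks went from 83 to 40 (10 kb), 133 (100 kb), 50 (scores at or above the list median), 20 (10000 highest-scoring peaks) and 35 (nearest gene only). MTA1 peaks went from 68 to 33, 110, 22 and 28 under the 10 kb, 100 kb, 10000 highest and nearest-gene settings. Requiring 50% of both peaks to overlap lowered the shared fraction to 53.0% of RUNX2 and 64.7% of MTA1 peaks, and under the other settings it stayed within the 95% intervals. These shares have no whole-list share at the same setting beside them. The whole-list 45.4% and 65.5% are for an overlap of 1 bp over all peaks. They are therefore no background for the 50% overlap or the score thresholds. With the 10000 highest-scoring peaks, 3 genes kept a RUNX2 peak within 3 kb of an end, 3 an MTA1 peak and 2 both, and 7 of the 38 pathway genes had both. The share of all protein-coding genes at this threshold was not computed, so these counts have no background beside them. The remaining alternatives moved no count by over 1.5 times. Since there was 1 library per antibody, no value has a replicate, and the depth behind weak or missing peaks is unknown. No paired analysis was possible because each antibody has 1 library and no test was run.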
